A study of Arabidopsis thaliana with 24 samples.

Results

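The comparison described here is the tissue difference of the salt response in RNA structure: how far the effect of salt on a transcript's chemical reactivity in roots departed from its effect on the same transcript in shoots. Plants of Arabidopsis thaliana Col-0, 24 days old and grown in hydroponic solution, either received 100 mM NaCl for 48 h or did not. Excised roots or shoots of about 40 plants made up each library, and they were exposed for 5 min to the methylating reagent dimethyl sulfate (DMS) at 0.75%, near 75 mM, or kept in its buffer alone. Tissue, salt and DMS make 8 groups of 3 biological replicates, so 24 libraries. The 4 conditions are salt-treated roots, control roots, salt-treated shoots and control shoots, and each rests on 6 libraries, 3 with DMS and 3 without.

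The authors combined these libraries before deposit, and the table used here holds 1 value per condition. The spread between replicates is therefore not known, no difference below was tested against replicate error, and every statement of size describes these 4 combined values. The read depth behind them is unknown.

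DMS enters living tissue and methylates adenines and cytosines whose pairing face is free, so a higher reactivity marks bases that are less often paired or covered. The mean reactivity of a transcript is its average over bases, on the authors' scale. The Gini index of a transcript is a fraction that is low where reactivity is spread evenly and high where a few bases hold most of it. In plants, salt sets off an osmotic and an ionic stress: abscisic acid builds up, its receptors block the PP2C phosphatases and free SnRK2 kinases, and dehydrins and other protective proteins are made. Roots meet the salt first and govern its uptake, while leaves hold nearly all of the photosynthetic machinery and receive sodium through the xylem.

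For each locus the lowest-numbered isoform in the table was taken. Of 8956 loci, 8891 had a mean reactivity of at least 0.1 in each tissue and were analysed, and all 65 left out fell below that minimum in root. The lowest tissue mean kept was 0.1006 and the highest left out was 0.0997. The salt effect in a tissue is the log2 ratio of mean reactivity, salt over control, minus the median of that ratio over all loci in the tissue. The uncentred medians were 0.09 in root and -0.03 in shoot. The tissue difference is the centred root ratio minus the centred shoot ratio: below 0, the root ratio was the lower one.

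Over the 8891 loci the tissue difference had an SD between loci of 0.169, with quartiles of -0.09 and 0.09 and a range of -1.49 to 1.58. The root ratio was at least 1.5-fold below the shoot ratio for 64 loci (0.72%) and at least 1.5-fold above it for 15 loci (0.169%). This balance rests on the scaling: without centring the counts were 41 loci below and 55 above. With a minimum of 0.2, 1 locus was above, and with a pseudocount of 0.1, 37 were below and 3 above. The 2 loci nearest that limit on the lower side were BXL1 at -0.588, just inside, and ATCG00960 at -0.584, just outside. On the upper side they were AT2G30230 at 0.607, inside, and LTP2 at 0.584, outside. Among the 64, the centred ratio was further from 0 in root for 49, and 56 lay on opposite sides of the 2 tissue medians. Among the 15, the shoot ratio was the one further from 0 for 12. After centring, the large negative differences were thus mostly a lower ratio in roots, and the large positive ones mostly a lower ratio in shoots. The median centred ratios of the 64 were -0.61 in root and 0.17 in shoot, and those of the 15 were 0.07 in root and -0.62 in shoot.

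The table holds no expression level, so the tissue labels could not be checked by the level of marker genes. Of the marker transcripts listed for this purpose, 6 of 10 expressed in shoots and 6 of 14 expressed in roots were analysed, which shows only that both kinds were measured. In bulk tissue, a change in the molecules of one cell type and a change in which cells supply the transcript cannot be told apart. The tissue difference leaned with the level of reactivity: Spearman's rho between the tissue difference and a locus's mean reactivity was -0.27 across the 8891 loci, which share the same 4 conditions. By decile of mean reactivity, the median tissue difference was 0.066 in the lowest decile and -0.105 in the highest.

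The photosynthetic apparatus carried the largest negative differences. All 22 analysed photosystem and light-harvesting subunits of the nuclear genome had a lower centred ratio in root than in shoot (50.4% of all loci had a higher one), with a median tissue difference of -0.92, against 0.00 over all loci. A smaller limit of 0.32 on the log2 scale was used for the ratio within 1 tissue. In root all 22 were at least 0.32 below the tissue median (138 of all loci, 1.55%, were). In shoot all 22 lay above the median, 3 of them by 0.32 or more (90 of all loci, 1.01%, did). The tissue difference reached 1.5-fold for 20 of the 22. When loci were centred within deciles of mean reactivity, the list's median was -0.83.

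**Figure D1:**
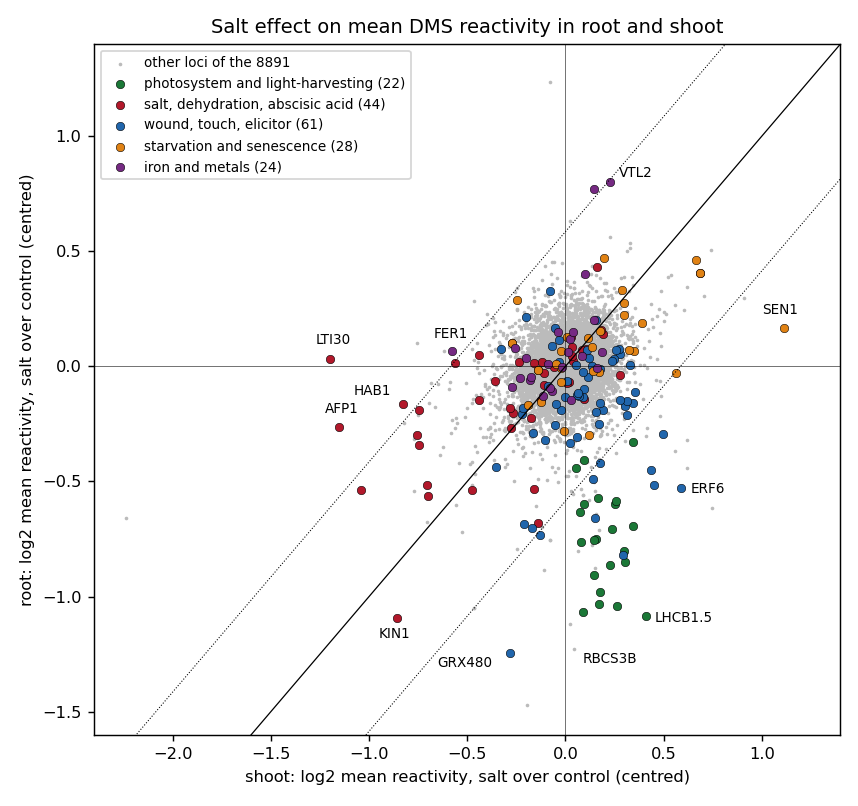
Each point is 1 of 8891 loci: the vertical axis gives the centred log2 salt ratio of mean reactivity in root, the horizontal axis that in shoot. Points on the solid line have equal ratios and dotted lines mark a 1.5-fold tissue difference. The 22 photosystem transcripts (green) lie low in root and just right of 0 in shoot, while LTI30, AFP1 and HAB1 of abscisic acid response and signalling lie left of 0 in shoot and near 0 or slightly below in root.

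LHCB1.5, a chlorophyll-binding antenna protein of photosystem II, had a mean reactivity of 0.344 in salt-treated roots and 0.686 in control roots, against 0.512 in salt-treated shoots and 0.395 in control shoots. Its centred ratios were -1.08 in root and 0.41 in shoot, a tissue difference of -1.49, the lowest of all loci. PSAO, a small subunit of photosystem I, had 0.259 in salt-treated roots and 0.499 in control roots, against 0.420 in salt-treated shoots and 0.382 in control shoots. In both transcripts the control root was the most reactive of the 4 conditions and the salt-treated root the least. The 3 near-identical antenna genes LHCB1.1, LHCB1.2 and LHCB1.3 had differences of -1.09, -1.30 and -1.15, but reads may be shared between them.

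Within the list, the 6 antenna proteins of photosystem II had the lowest median, -1.15, with a range of -1.49 to -0.50. The 7 photosystem I subunits had a median of -0.94, the 6 photosystem II subunits -0.87 and the 3 antenna proteins of photosystem I -0.85. The ranges of these groups overlapped, and the 2 members short of 1.5-fold were PSAP, of photosystem I, at -0.50 and LHCB4.1, a minor antenna protein, at -0.50. Across the 22 transcripts, mean reactivity ran between 0.216 and 0.461 in salt-treated roots, with a median of 0.331, and between 0.323 and 0.686 in control roots, with a median of 0.504. In shoots it ran between 0.333 and 0.517 with salt, median 0.433, and between 0.306 and 0.432 without, median 0.393. Without salt these transcripts were more reactive in root than in shoot, by a median log2 ratio of 0.42, and with salt less reactive, by -0.40. Over all loci the root-over-shoot medians were -0.32 with salt and -0.45 without.

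Reactivity along these transcripts was uneven in roots. The median Gini index of the 22 was 0.798 in salt-treated roots and 0.800 in control roots, against 0.561 in salt-treated shoots and 0.509 in control shoots. Over all loci the 4 medians were close together, at 0.687 in salt-treated roots, 0.678 in control roots, 0.690 in salt-treated shoots and 0.678 in control shoots. The part that this unevenness in root has in the tissue difference was not tested.

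Other photosynthetic functions divided. The 7 transcripts of photosynthetic electron transport and the chloroplast ATP synthase had a median tissue difference of -0.53, and 3 of them were past 1.5-fold: PETE2, which encodes the electron carrier plastocyanin, at -1.03, ATPD, an ATP synthase subunit, at -0.80 and FNR1, which reduces NADP, at -0.59. TAP38, the phosphatase of the antenna, was at -0.06. PETE2 had 0.335 in salt-treated roots and 0.579 in control roots, against 0.389 in salt-treated shoots and 0.359 in control shoots. This list was put together after values had been seen.

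Carbon fixation split by gene. RBCS3B, a small subunit of the carbon-fixing enzyme Rubisco, had 0.239 in salt-treated roots and 0.526 in control roots, against 0.375 in salt-treated shoots and 0.372 in control shoots. RBCS1A, another small subunit, had 0.184 in salt-treated roots and 0.376 in control roots, against 0.367 in salt-treated shoots and 0.370 in control shoots. For both genes the shoot values with and without salt were nearly equal, and the tissue differences of -1.27 and -1.14 came from root, with the limit that small-subunit genes may share reads. RCA, the activase that keeps Rubisco open, followed at -0.73. The 12 remaining Calvin cycle and photorespiration transcripts had a median of -0.10, a range of -0.43 to 0.24 and no member past 1.5-fold. AGT, a photorespiratory aminotransferase, was the highest at 0.24, with a root ratio of 0.36.

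The 17 chlorophyll and tetrapyrrole synthesis transcripts had a median tissue difference of -0.14, with 14 below 0 and none past 0.32 from the median in either tissue. Centred within deciles of mean reactivity, their median was -0.04 and 7 were above 0. The 8 chloroplast RNA-binding and plastid-specific ribosomal proteins were all below 0, with a median of -0.17, and none was past 0.32 in either tissue. With decile centring their median was -0.07 and 2 were above 0. CP31, a chloroplast ribonucleoprotein, was the lowest of these at -0.40. All 14 chloroplast-encoded loci, which hold 9 distinct sets of values because some are duplicated, were below 0 with a median of -0.48. With decile centring their median was -0.44 and 2 were above 0. The 5 past 1.5-fold were ATCG00470 and the identical pairs ATCG00950 with ATCG01180 and ATCG00920 with ATCG01210. ATCG00960 and ATCG01170, another identical pair, were lower in both tissues, with centred ratios of -1.05 in root and -0.46 in shoot. ATCG00470 had 0.367 in salt-treated roots and 0.516 in control roots, against 0.421 in salt-treated shoots and 0.397 in control shoots. ATCG00900 and ATCG01240, which share all values, were close to 0 at -0.03. The 6 mitochondria-encoded transcripts had a median of -0.05 and none past 1.5-fold.

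**Figure D2:**
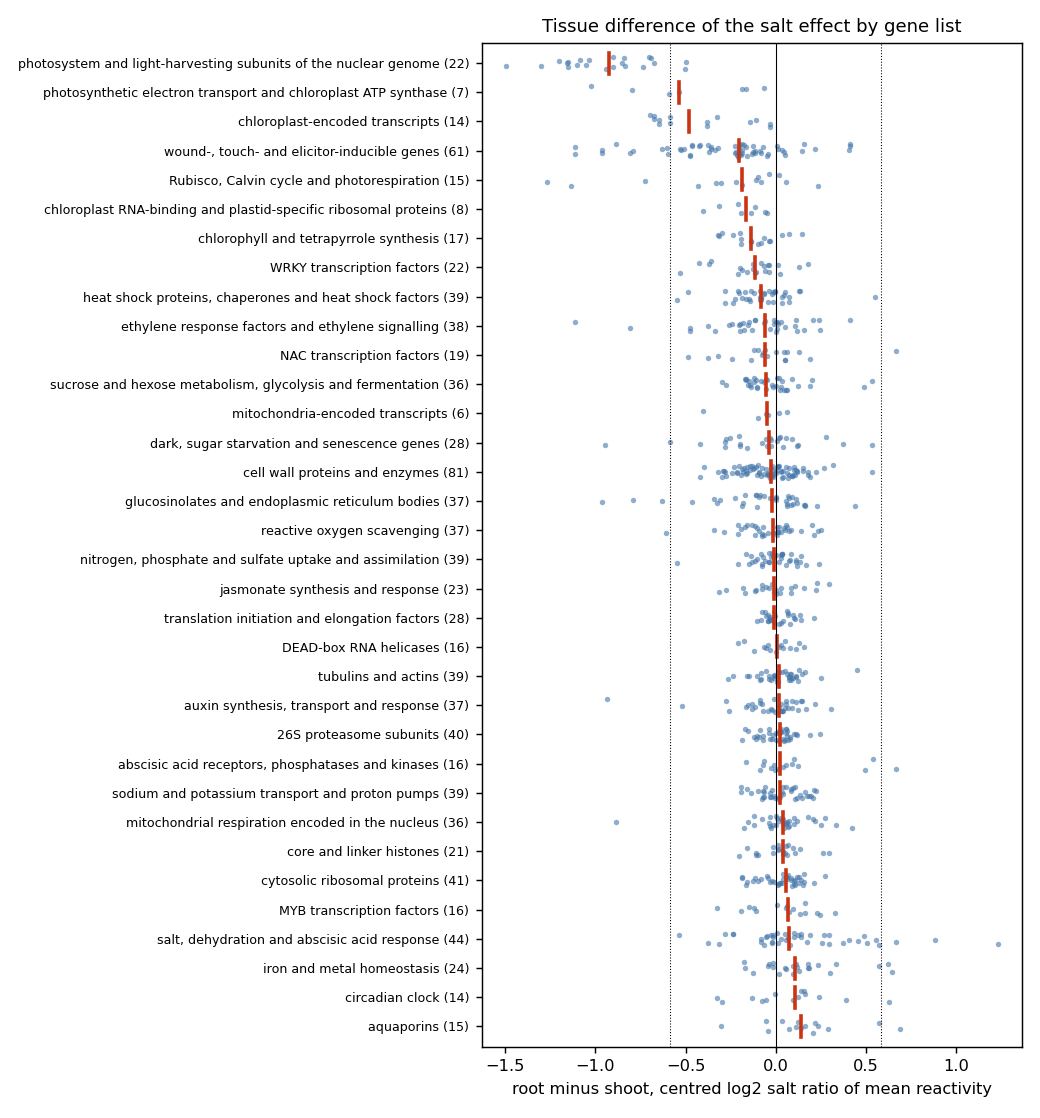
Tissue difference of the salt effect for every analysed member (points) of 34 gene lists, with the number of members in brackets and the list median as a red bar. Dotted lines mark 1.5-fold either way. Photosystem (-0.92), electron transport (-0.53) and chloroplast-encoded transcripts (-0.48) had the lowest medians and aquaporins (0.14) the highest.

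Genes that respond to wounding, touch or elicitors were the other large group on the negative side. This list was also put together after values had been seen. Of its 61 members, 50 were below 0, the median was -0.20, and 10 were at least 1.5-fold below (64 of all loci, 0.72%). At the limit of 0.32, 9 were lower in root with shoot in between, 4 were higher in shoot with root in between, and 3 were lower in root and higher in shoot. Over all loci those 3 patterns held 103 (1.16%), 69 (0.776%) and 9 (0.101%) loci.

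ERF6, a transcription factor that takes part in early stress responses, had 0.153 in salt-treated roots and 0.207 in control roots, against 0.412 in salt-treated shoots and 0.280 in control shoots. Its centred ratios lay on opposite sides, -0.53 in root and 0.59 in shoot. PSK4, a precursor of the growth peptide phytosulfokine, had 0.163 in salt-treated roots and 0.271 in control roots, against 0.305 in salt-treated shoots and 0.255 in control shoots. GRX480, a glutaredoxin that binds TGA factors, had 0.092 in salt-treated roots and 0.204 in control roots, against 0.211 in salt-treated shoots and 0.262 in control shoots. GRX480 was lower with salt in both tissues, and further in root, with a tissue difference of -0.96. DIC2, a dicarboxylate carrier of the mitochondrial inner membrane, was lower in root at -0.45 and higher in shoot at 0.44.

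All 8 ethylene response factors of this list were below 0, with a median of -0.43, and ERF2 joined ERF6 past 1.5-fold at -0.81. The wider list of 38 ethylene response factors and ethylene signalling genes was mixed. It had 23 members below 0, 15 above 0 and a median of -0.06, with none but ERF6 and ERF2 past 1.5-fold. Of the 10 WRKY factors on the wound and touch list 9 were below 0, the lowest being WRKY46 at -0.53. The 4 IGMT genes, methyltransferases that modify indole glucosinolates, ran between -0.96 and -0.46, and 3 were past 1.5-fold. IGMT2 had 0.214 in salt-treated roots and 0.287 in control roots, against 0.338 in salt-treated shoots and 0.253 in control shoots. The IGMT genes lie close in sequence and may share reads. OM66, an ATPase of the mitochondrial outer membrane, was at -0.60 with a shoot ratio of -0.13. On the other side NHL1 was at 0.42, CML38, a calmodulin-like protein, at 0.41 and ZAT6, a zinc finger factor, at 0.40.

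Salt, dehydration and abscisic acid response genes leaned the other way. Of 44 members 28 were above 0 (50.4% of all loci), the median was 0.07, and 3 were at least 1.5-fold above (15 of all loci, 0.169%) with none as far below. At the limit of 0.32, 9 were lower in shoot with root in between (110 of all loci, 1.24%), 2 were lower in root with shoot in between and 6 were lower in both (26 of all loci, 0.292%). Their medians were -0.07 in root and -0.16 in shoot.

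LTI30, a dehydrin, had 0.109 in salt-treated roots and 0.1003 in control roots, against 0.110 in salt-treated shoots and 0.259 in control shoots. Its control shoot value was the highest of the 4 but below the median of all loci in control shoots, 0.274, and its centred ratios were 0.03 in root and -1.20 in shoot. AFP1, which binds ABI5 and damps abscisic acid signalling, had 0.111 in salt-treated roots and 0.125 in control roots, against 0.093 in salt-treated shoots and 0.213 in control shoots. RD26, a NAC transcription factor of the dehydration response, had 0.148 in salt-treated roots and 0.156 in control roots, against 0.135 in salt-treated shoots and 0.246 in control shoots. The 3 transcripts shared 1 pattern: both root values and the salt-treated shoot value were close together, and the control shoot stood above them. The control shoot was also the highest of the 4 conditions for 59.9% of all loci. The root means of LTI30 and AFP1 lay close to the minimum of 0.1.

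Not every gene of the response differed by tissue. RD29A, a hydrophilic protein used as a marker of the osmotic response, had 0.313 in salt-treated roots and 0.420 in control roots, against 0.227 in salt-treated shoots and 0.380 in control shoots. It was lower with salt in both tissues, with a tissue difference of 0.19. KIN1, a small cold- and abscisic acid-induced protein, had 0.137 in salt-treated roots and 0.275 in control roots, against 0.136 in salt-treated shoots and 0.252 in control shoots, and a difference of -0.24. KIN2, its close homologue, was lower mainly in root, with centred ratios of -0.68 in root and -0.14 in shoot, and the pair may share reads. NAC102, a transcription factor, was also lower mainly in root at -0.53, with -0.16 in shoot. GOLS2, ALDH7B4 and ATHB7, named after their values were seen, were lower in shoot by more, with centred shoot ratios of -1.04, -0.75 and -0.76 and root ratios of -0.54, -0.19 and -0.30.

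**Figure D3:**
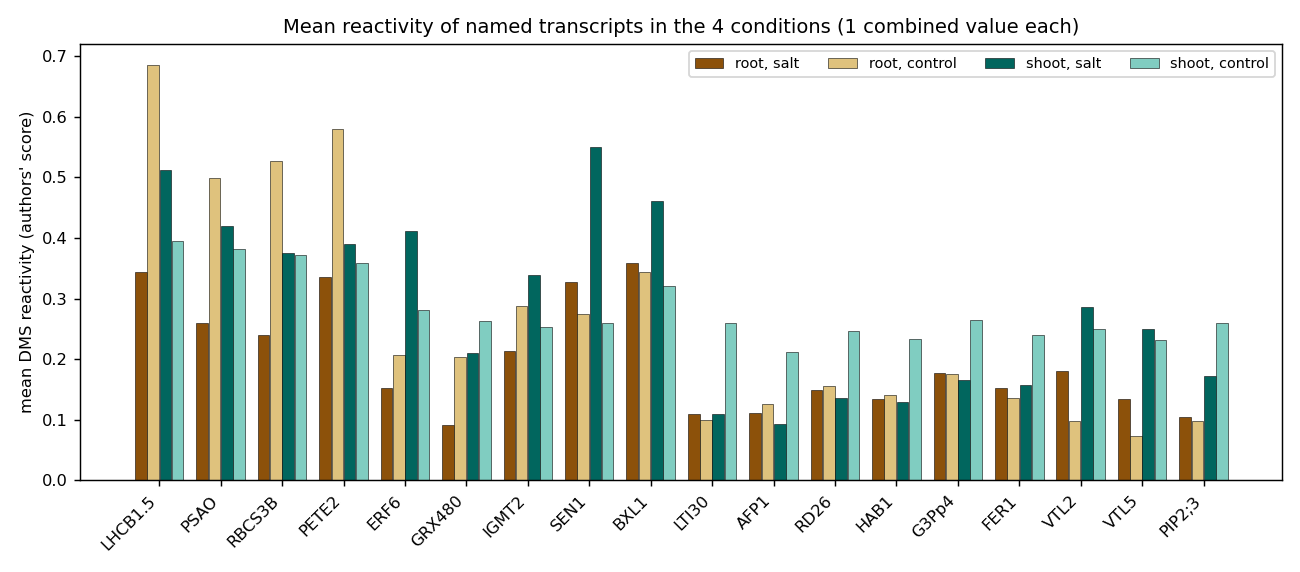
Mean DMS reactivity of 18 named transcripts, on the authors' scale, in salt-treated roots, control roots, salt-treated shoots and control shoots, 1 combined value per bar and so without error bars. LHCB1.5, PSAO, RBCS3B and PETE2 were highest in control roots, ERF6, IGMT2, SEN1 and BXL1 in salt-treated shoots, and LTI30, AFP1, RD26 and HAB1 in control shoots. Of all loci, 2.88% were highest in control roots, 32.3% in salt-treated shoots and 59.9% in control shoots.

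In abscisic acid signalling, the tissue differences of phosphatases, receptors and kinases overlapped. The 5 PP2C phosphatases, which hold the pathway off, had median ratios of -0.22 in root and -0.54 in shoot, and their tissue differences ran between -0.07 and 0.67, with a median of 0.12. HAB1 was past 1.5-fold, with 0.135 in salt-treated roots and 0.141 in control roots, against 0.129 in salt-treated shoots and 0.234 in control shoots. ABI2 followed at 0.54. The 5 receptors had a median tissue difference of 0.04 and a range of -0.08 to 0.50, with RCAR1 the highest. The 5 SnRK2 kinases had a median of 0.00 and a range of -0.16 to 0.06. Of all 16 transcripts of this list, 4 were lower in shoot with root in between at 0.32 (1.24% of all loci), 1 was lower in both (0.292%), and 1 was higher in root with shoot in between (0.551%).

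Iron and metal homeostasis held transcripts with a higher ratio in root. VTL2, a vacuolar iron transporter-like protein, had 0.181 in salt-treated roots and 0.098 in control roots, against 0.286 in salt-treated shoots and 0.250 in control shoots. VTL5, of the same family, had 0.134 in salt-treated roots and 0.074 in control roots, against 0.250 in salt-treated shoots and 0.232 in control shoots. Both were lowest in control roots, as 6688 of the 8891 loci were. Those control root values were under the minimum of 0.1 set for a tissue mean. The tissue differences were 0.57 for VTL2 and 0.62 for VTL5. FER1, a ferritin that stores iron in plastids, differed through shoot instead, with 0.152 in salt-treated roots and 0.137 in control roots, against 0.157 in salt-treated shoots and 0.241 in control shoots. FER3, another ferritin, was near 0 at 0.02. The list of 24 had a median of 0.10, with 17 above 0 (50.4% of all loci were). In it 2, VTL5 and FER1, were at least 1.5-fold above (0.169% of all loci). At 0.32, 3 were higher in root alone (49 of all loci, 0.551%).

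Aquaporins, the water channels, had the highest list median, 0.14, with 12 of 15 above 0 (50.4% of all loci were). With the highest reactivity of a transcript in place of its mean, the list median was -0.013. All 4 tonoplast TIP members were above 0, between 0.07 and 0.29. TIP2;1 had 0.420 in salt-treated roots and 0.303 in control roots, against 0.362 in salt-treated shoots and 0.329 in control shoots. PIP2;3, of the plasma membrane, had 0.105 in salt-treated roots and 0.098 in control roots, against 0.172 in salt-treated shoots and 0.260 in control shoots. It may share reads with PIP2;2, which fell below the minimum in root. PIP2;8 went the other way at -0.30. The single member past 1.5-fold, SIP1;2 at 0.69, had a Gini index up to 0.941, so a few bases held most of its reactivity.

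Dark, sugar starvation and senescence genes had centred medians above 0 in both tissues, 0.08 in root and 0.14 in shoot. Of 28 members, 5 were higher in shoot with root in between at 0.32 (69 of all loci, 0.776%), 2 higher in root with shoot in between, and 2 higher in both (12 of all loci, 0.135%). SEN1, a dark- and senescence-induced gene, had 0.327 in salt-treated roots and 0.274 in control roots, against 0.549 in salt-treated shoots and 0.260 in control shoots. Its centred shoot ratio of 1.11 was the highest of all loci in shoot. BXL1, a cell wall beta-xylosidase, had 0.358 in salt-treated roots and 0.344 in control roots, against 0.461 in salt-treated shoots and 0.320 in control shoots. ERD5, a proline dehydrogenase, was higher in both, with 0.279 in salt-treated roots and 0.198 in control roots, against 0.477 in salt-treated shoots and 0.304 in control shoots. EXL4 was the highest of the list at 0.54, and the list's median of -0.04 was close to that of all loci.

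**Figure D4:**
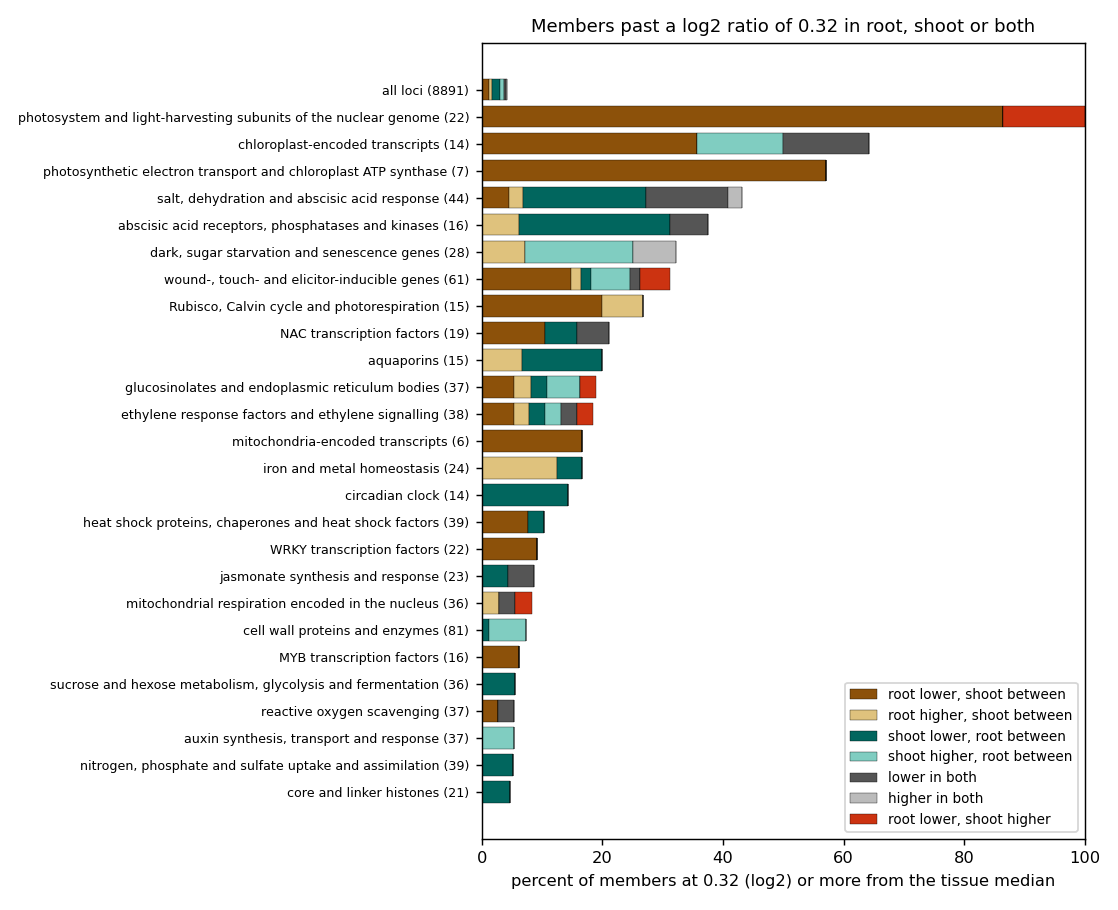
Percent of the analysed members of each list whose centred salt ratio of mean reactivity was at least 0.32 from the tissue median, split by tissue and direction, with all 8891 loci in the top bar. "Between" means closer than 0.32 in that tissue. Lower in root alone filled 19 of 22 photosystem members, lower in shoot alone 9 of 44 salt and abscisic acid members, and higher in shoot alone 5 of 28 starvation members. Lists with no member past the limit are not drawn.

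Single genes of other pathways also differed between the tissues. JMJD5, a histone demethylase tied to the circadian clock, had 0.271 in salt-treated roots and 0.218 in control roots, against 0.253 in salt-treated shoots and 0.342 in control shoots, a tissue difference of 0.63. SUS1, a sucrose synthase, was at 0.54, with -0.16 in root and -0.70 in shoot. HSP18.2, a small heat shock protein, was at -0.55, and GLN1;1, a cytosolic glutamine synthetase, was at -0.54. The centred ratios of GLN1;1 were -0.30 in root and 0.25 in shoot, both within 0.32 of the median. PRXQ, a plastid thiol peroxidase, was at -0.61 and the only 1 of 37 reactive oxygen genes past 1.5-fold. IAA19, an auxin-response repressor, was at -0.52 with a shoot ratio of 0.46. Among cell wall genes 5 of 81 were higher in shoot alone at 0.32 (69 of all loci, 0.776%), EXL3 among them with 0.00 in root and 0.40 in shoot.

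Like most loci, all members of several lists stayed within 0.32 of the median in both tissues. None of the 41 cytosolic ribosomal proteins, 28 translation factors, 16 DEAD-box helicases, 40 proteasome subunits, 39 tubulins and actins or 39 sodium, potassium and proton transport genes was 0.32 or more from the median in root or in shoot. Of all loci, 95.7% were likewise within it in both tissues. NHX1, the vacuolar sodium/proton exchanger, had 0.178 in salt-treated roots and 0.177 in control roots, against 0.194 in salt-treated shoots and 0.243 in control shoots. Its tissue difference was 0.22, and that of AVP1, the vacuolar proton-pumping pyrophosphatase, was -0.01. SOS1, HKT1, RD29B and P5CS1 were not analysed here.

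A stricter rule counted loci at least 1.5-fold from the median in one tissue and within 1.1-fold of it in the other. It found 14 loci lower in root (0.157%), 2 higher in root (0.0225%), 8 lower in shoot (0.09%) and 0 higher in shoot (0.0%). Because no test of the difference was possible, "one tissue only" here means these 2 limits and no more. The 14 lower in root held 4 photosystem subunits, PSBTN, PSBX, PSBR and LHCA2, both Rubisco small subunits, OM66 and 2 chloroplast loci with identical values, ATCG00950 and ATCG01180. The rest, on none of the lists, were LTP1, PCC1, AT1G09310, AT2G26500 and AT3G47070. PSBTN had 0.243 in salt-treated roots and 0.479 in control roots, against 0.395 in salt-treated shoots and 0.381 in control shoots. PSBX and PSBR were at -0.84 and -0.70, and LHCA2 at -0.69.

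The 8 lower in shoot held LTI30, the remorin REM4.1, the glycerol-3-phosphate permease G3Pp4 and CYP89A9, which acts in chlorophyll breakdown. They also held the water channel SIP1;2 and the loci AT1G68500, AT5G61820 and AT1G73390. G3Pp4 had 0.178 in salt-treated roots and 0.176 in control roots, against 0.165 in salt-treated shoots and 0.265 in control shoots. AT1G68500 had 0.170 in salt-treated roots and 0.149 in control roots, against 0.118 in salt-treated shoots and 0.203 in control shoots. In both, the control shoot was the highest of the 4, as it was for 59.9% of all loci. The 2 higher in root were AT2G30230, with 0.174 in salt-treated roots and 0.106 in control roots, against 0.259 in salt-treated shoots and 0.261 in control shoots, and AT2G47570, whose Gini index reached 0.992.

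The lower and the higher set sat at different levels. Of the 64 loci with the lower root ratio, 39 had their highest mean reactivity in control roots, as 2.88% of all loci did, and 42 their lowest in salt-treated roots, as 1508 of the 8891 did. The choice of the 64 by a low root salt ratio favours both, so these counts are a description. Of the 15 with the higher root ratio, 13 were highest in control shoots, as 59.9% of all loci were, and 14 had a root mean under 0.2, as 4031 of the 8891 had. Where several isoforms were in the table, they ran together: over 2817 such loci the median range of the tissue difference between isoforms was 0.024. Of the 17 large loci with more than 1 isoform, 15 passed 1.5-fold with every isoform, and all 17 kept the same side of 0. Isoforms share most of their bases, so this is no replication.

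The widest differences included transcripts whose reactivity rested on few bases. AT5G10660 was at -1.36 with a Gini index up to 0.970, and AT1G20015 at -1.28 with 0.960. SADHU2-1 had the highest tissue difference of all, 1.58, with a Gini index up to 0.994 and 0.149 in salt-treated roots, 0.221 in control roots, 0.045 in salt-treated shoots and 0.218 in control shoots.

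The Gini index gave a second view of the tissue difference. Its salt effect is the index with salt minus the index without, and its medians over loci before centring were 0.0081 in root and 0.0131 in shoot. After centring, the tissue difference of the Gini index had an SD between loci of 0.031, and it was at least 0.05 lower in root for 499 loci (5.61%) and at least 0.05 higher for 391 (4.4%). Over all loci it was unrelated in rank to the tissue difference of the mean, with a Spearman's rho of 0.03. Within tissues, the salt effects on mean and Gini index had a rho of 0.00 in root and 0.30 in shoot.

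FKBP65, a heat-induced co-chaperone, had the lowest tissue difference of the Gini index, -0.218. Its index was 0.632 in salt-treated roots and 0.736 in control roots, against 0.701 in salt-treated shoots and 0.581 in control shoots, so reactivity was more even with salt in root and less even in shoot. Among loci with a mean reactivity of at least 0.2 in each tissue, TAA1, an aminotransferase of auxin synthesis, followed at -0.146, EXPA11, an expansin, at -0.133, UGT73B1, a glycosyltransferase, at -0.133 and IGMT2 at -0.132. The highest values under the same limit were those of HCD1 at 0.127, AT1G21790 at 0.123, AL5, an Alfin-like protein, at 0.096, AT4G15450 at 0.094 and BLH1, a homeodomain protein, at 0.091. For TAA1 the tissue difference of the mean was small, -0.13. Of 58 loci at 0.1 or more either way, 13 were also past 1.5-fold in the mean.

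**Figure D5:**
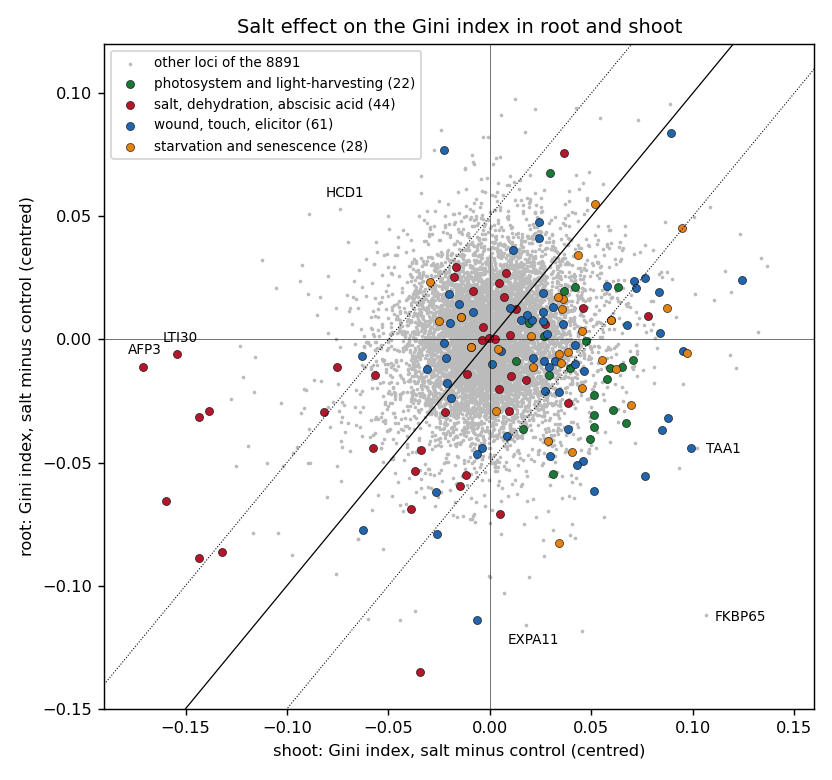
Each point is 1 of 8891 loci: the vertical axis gives the centred salt-minus-control difference of the Gini index (a fraction) in root, the horizontal axis that in shoot. Points on the solid line have equal differences and dotted lines mark a tissue difference of 0.05. Photosystem (green), wound (blue) and starvation (orange) transcripts lie mostly below the solid line, while LTI30 and AFP3 of abscisic acid response lie far left, with a lower Gini index in salt-treated shoots.

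By list, photosystem transcripts had a median tissue difference of the Gini index of -0.062, with 21 of 22 below 0 (49.9% of all loci were). Of these 22, 13 were at or below -0.05 (5.61% of all loci were). The wound and touch list had -0.036, with 21 of 61 at or below -0.05, and the starvation list -0.041, with 10 of 28. In these 3 lists the centred salt effect on the index was near 0 in root, with medians of -0.012, -0.005 and -0.003, and above it in shoot, with 0.048, 0.026 and 0.036. Relative to the other loci, their reactivity was less even in salt-treated shoots than in control shoots. Iron genes had a median of 0.023, with 4 of 24 at or above 0.05 (4.4% of all loci were). Salt and abscisic acid genes spread both ways, 8 of 44 at or above 0.05 and 5 at or below -0.05, with LTI30 at 0.148 and KIN1 at -0.101. AFP3, named after its values were seen, was the highest of all loci at 0.160, with an index of 0.740 in salt-treated roots and 0.743 in control roots, against 0.657 in salt-treated shoots and 0.815 in control shoots.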

How the data were processed

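Structure-seq2 reads the stops that DMS marks cause in reverse transcription. The deposited table held 12978 transcripts with 1 value per condition, from replicates combined by the authors. Per the file headers, its reactivity measures are scores on the authors' scale (highest value, mean and standard deviation between bases of a transcript), and the deposited Gini index is a fraction. The aligner, genome build, bases counted, reactivity normalization and coverage filter were not given in the sources used here. A shift of a whole tissue or condition thus cannot be told from its scaling, which is why each tissue was centred on its median. Read depth is unknown.

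Of the 8891 analysed loci, 8829 were matched by locus code to the gene table used for names. Differences were described by size, with no test, since each condition had 1 value. Large meant 1.5-fold for mean reactivity and 0.05 for the Gini index. The tissue difference of mean reactivity was tested on simulated data, while that of the Gini index and the locus selection were not. Python 3.11.15, pandas 2.3.3, numpy 2.4.6 and matplotlib 3.10.9 were used.

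Members and the 34 lists were chosen with earlier results of these data known, and 2 lists (photosynthetic electron transport, and wound, touch and elicitor genes) after values were seen. Lists overlap, and their subgroups by gene family were made for description. The genes named were the 10 highest and 10 lowest tissue differences with a Gini index below 0.9, from each list the 3 members at either end and any past 1.5-fold, the 8 largest of each one-tissue class, the 5 highest and 5 lowest differences of the Gini index at a mean of at least 0.2, 20 fixed genes (15 of them analysed), and up to 4 leaders each way with a Gini index above 0.9. Not every gene so named is printed. Alternatives changed the minimum, a pseudocount, the centring, the isoform, the limits and the measure.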

Additional observations from a re-analysis of the deposited data

Results flagged for a closer look

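For 9 loci the centred salt ratio was at least 0.32 (log2) below the median in root and at least 0.32 above it in shoot, so the tissues lay on opposite sides. With 1 combined value per condition, these differences were not tested. Their tissue differences were -1.49 for LHCB1.5, -1.36 for AT5G10660, -1.12 for ERF6, -1.06 for AT2G41231, -1.04 for PSAD-2, -0.96 for IGMT2, -0.93 for AT3G31161, -0.89 for DIC2 and -0.67 for PSAN. AT5G10660 and AT2G41231 had a Gini index up to 0.970 and 0.969. No locus lay that far above in root and below in shoot.

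For 3 lists the median also lay below 0 in root and above 0 in shoot by at least 0.1 each: -0.92 for photosystem and light-harvesting subunits, -0.53 for photosynthetic electron transport and the chloroplast ATP synthase, and -0.48 for chloroplast-encoded transcripts. These differences were not tested either, and the electron transport list was put together after values had been seen.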

How the results depend on the processing

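No paired analysis was possible because the table holds 1 combined value per condition. For the same reason leaving out each replicate in turn could not be run. The 1.5-fold counts above were 15 loci higher and 64 lower in root. One-tissue classes held 2 loci higher and 14 lower in root, and 0 higher and 8 lower in shoot. Lists with a median of 0.1 or more numbered 3, and of -0.1 or less 8, and the Gini index gave 391 loci higher and 499 lower.

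With a minimum of 0.2, 1 locus was higher in root, the root-higher and shoot-lower classes both held 0, and the Gini counts were 180 higher and 254 lower. A pseudocount of 0.1 gave 3 higher and 37 lower, classes of 0 root higher, 1 shoot higher and 1 shoot lower, and 0 lists at 0.1 or more. Without centring there were 55 higher and 41 lower, 13 in the shoot-lower class, 19 lists at 0.1 or more and 3 at -0.1 or less, and the WRKY list turned to 0.011. Centring within deciles of mean reactivity gave 23 in the root-lower class and 5 lists at -0.1 or less. Counting all isoforms gave 25 higher and 1 list at 0.1 or more. Leaving out transcripts with a Gini index of 0.9 or more left 1 in the root-higher class.

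A limit of 0.32 on the log2 scale gave 191 higher and 231 lower, and classes of 27 root higher, 51 root lower, 33 shoot higher and 57 shoot lower. A limit of 2-fold gave 3 higher and 18 lower, and classes of 1 root higher, 3 root lower and 1 shoot lower. Allowing 1.2-fold in the other tissue gave classes of 4 root higher, 33 root lower, 2 shoot higher and 15 shoot lower. A Gini limit of 0.025 gave 1587 higher and 1686 lower, and one of 0.1 gave 22 higher and 36 lower.

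The other alternatives were chosen after seeing the data. The highest-numbered isoform gave 1 list at 0.1 or more. The standard deviation between bases in place of the mean gave 54 higher and 131 lower, and AT2G30230 turned to -0.22. The highest reactivity of a transcript gave 305 higher and 324 lower and 13 lists at -0.1 or less. With it the aquaporin list turned to -0.013, the clock list to -0.11, SAUR74 to 0.14, AT2G30230 to -0.82, AT2G47570 to -0.10 and SADHU2-1 to -0.24. The cause of these changes was not tested beyond the limits, samples of loci or measures that each alternative sets. Of 66 large named loci, 4 turned sign with the highest reactivity and 1 with the standard deviation. None turned with a pseudocount, without centring, with decile centring or with the other isoform. These settings could hardly turn a locus chosen at 1.5-fold. Both changes of centring move it by less than that limit, and isoforms share most of their bases. Of these 66, 37 kept 1.5-fold with the pseudocount, 52 without centring, 58 with decile centring and 65 with the other isoform.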

Other observations

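Among lists not described above, heat shock proteins and chaperones had 30 of 39 members below 0, with a median tissue difference of -0.08 and none past 1.5-fold. WRKY transcription factors had 18 of 22 below 0 (4406 of the 8891 loci were) and a median of -0.11, and 2 were lower in root with shoot in between at 0.32 on the log2 scale (1.16% of all loci). NAC factors divided, with ATAF2 at -0.49 and RD26 at 0.67. VSP2, a vegetative storage protein of the jasmonate response, was lower in both tissues, with 0.149 in salt-treated roots and 0.205 in control roots, against 0.145 in salt-treated shoots and 0.254 in control shoots. AOX1A, the alternative oxidase of mitochondria, was also lower in both, with centred ratios of -0.39 in root and -0.64 in shoot.

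The set of 64 loci with the lower root ratio of mean reactivity had a median tissue difference of the Gini index of -0.049. In it 51 were below 0 (49.9% of all loci were), and 20 of the 64 were photosystem transcripts. The set of 15 with the higher ratio had 0.055, with 10 above 0 (4451 of the 8891 loci were). Over all loci the tissue differences of mean and Gini index had a Spearman's rho of 0.03.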
